A study of Rattus norvegicus with 8 samples.

Results

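Cholesterol is made in the liver by a long chain of enzymes, and 28 genes of that chain, its control by SREBP2 and the handling of sterols inside cells were followed in rats fed PFOS. PFOS, given as potassium perfluorooctanesulfonate, is a fluorinated surfactant. The 28 genes were taken as a list by function: 20 synthesis enzymes from Acat2 to Dhcr7, 4 genes of SREBP2 control (Insig1, Insig2, Scap and Srebf2) and 4 of sterol handling (Stard4, Mylip, Npc1 and Npc2). All probes whose RefSeq accession mapped to those symbols were used, which gave 31 probes for 27 genes, and 30 of these probes were bright enough to test. No probe was matched to Lbr, so 27 of 15204 tested genes and features are described here. The animals were adult male Sprague-Dawley rats, 4 on a control diet and 4 on a diet with 50 mg/kg PFOS, eaten freely for 28 days. Liver RNA of each rat, labelled with Cy5, was hybridised on its own array beside a universal rat reference RNA labelled with Cy3. The log2 ratio of Cy5 over Cy3 is the main quantity, and the log2 brightness of the Cy5 channel alone is the other.

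Cells make cholesterol from acetyl-CoA through mevalonate, farnesyl diphosphate, squalene and lanosterol. The transcription factor SREBP2 switches on these enzymes together. When sterols are plentiful, the INSIG proteins hold SREBP2 and its escort SCAP in the endoplasmic reticulum, and when sterols fall, SCAP carries SREBP2 to the Golgi, where proteases release its active part. The liver is the main organ of cholesterol synthesis and of its export in lipoproteins and bile.

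Because the synthesis genes are known to be switched on together, the promoters of 5 members are shown, 250 bases before to 50 after a transcript start from RefSeq's promoter table of the GRCr8 build, 5′ to 3′ on the gene's strand. They were picked for Hmgcs1, which rose with PFOS, for Mvk, Fdps and Insig1, which hold differing numbers of CCAAT boxes, and for Cyp51, which holds none. Capitals mark CCAAT, the letters bound by the factor NF-Y that works beside SREBP2 at many of these genes, or ATTGG, the same box on the other strand. The windows are chr2:53382054-53382353 (plus strand) for Hmgcs1, chr12:47819454-47819753 (minus strand) for Mvk and chr2:176804767-176805066 (minus strand) for Fdps. Insig1 is at chr4:8057720-8058019 (minus strand) and Cyp51 at chr4:30991443-30991742 (plus strand).
Hmgcs1: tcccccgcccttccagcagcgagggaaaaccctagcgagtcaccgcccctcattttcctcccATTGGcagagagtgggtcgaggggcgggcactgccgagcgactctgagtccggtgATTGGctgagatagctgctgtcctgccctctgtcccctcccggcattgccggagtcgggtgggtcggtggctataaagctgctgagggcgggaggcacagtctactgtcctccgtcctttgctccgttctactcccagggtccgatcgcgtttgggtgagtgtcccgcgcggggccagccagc
Mvk: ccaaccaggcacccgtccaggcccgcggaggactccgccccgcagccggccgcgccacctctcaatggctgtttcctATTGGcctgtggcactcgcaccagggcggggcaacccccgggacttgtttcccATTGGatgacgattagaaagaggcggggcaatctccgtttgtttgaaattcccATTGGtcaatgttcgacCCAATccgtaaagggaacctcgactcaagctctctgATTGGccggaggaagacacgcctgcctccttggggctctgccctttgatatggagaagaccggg
Fdps: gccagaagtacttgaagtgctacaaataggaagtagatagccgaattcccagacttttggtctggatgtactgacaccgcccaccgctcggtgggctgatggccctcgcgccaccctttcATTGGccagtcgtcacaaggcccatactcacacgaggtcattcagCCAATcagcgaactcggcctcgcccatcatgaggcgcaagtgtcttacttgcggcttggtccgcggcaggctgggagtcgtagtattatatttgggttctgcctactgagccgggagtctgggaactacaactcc
Insig1: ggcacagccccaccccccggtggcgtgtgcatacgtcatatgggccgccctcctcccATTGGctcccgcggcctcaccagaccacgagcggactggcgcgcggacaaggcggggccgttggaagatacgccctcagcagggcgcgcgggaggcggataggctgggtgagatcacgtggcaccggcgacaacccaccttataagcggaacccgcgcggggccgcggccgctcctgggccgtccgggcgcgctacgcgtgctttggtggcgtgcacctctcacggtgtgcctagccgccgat
Cyp51: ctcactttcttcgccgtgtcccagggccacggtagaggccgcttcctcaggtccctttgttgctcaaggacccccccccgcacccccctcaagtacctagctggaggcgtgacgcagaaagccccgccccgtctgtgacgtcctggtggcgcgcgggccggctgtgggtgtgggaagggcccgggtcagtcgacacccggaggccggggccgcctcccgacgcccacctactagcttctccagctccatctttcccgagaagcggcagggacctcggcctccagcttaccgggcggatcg

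A promoter entry was matched for 24 of the 28 genes, and for 13 of these the start used was the outermost start of the gene in RefSeq. Mvk, Fdps and Cyp51 are among those, while the window of Insig1 lay 43 bases and that of Hmgcs1 2847 bases downstream of the outermost start. CCAAT was found on either strand in 19 of these 24 promoters (79.2%) and in 37.5% of all 33469 promoters of the same length. Mvk held 5 such boxes, of which 4 stood on the other strand at a spacing of 53 bases, and Nsdhl also held 5. Hmgcs1 held 2, at 188 and 133 bases before the start. The GC box GGGCGG, on either strand, was in 20 of the 24 (83.3%) against 33.1% of all promoters. TCACNCCAC, a common form of the sterol element, was in none of the 24 windows and in 1.12% of all promoters, which says only that these letters are not in these windows. No matches of different motifs shared a base in these promoters (0 pairs). A match is a description, not a binding site.

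The arrays lay on 1 slide, in 2 slide rows that each held 2 control and 2 PFOS arrays. Each slide column held 1 control and 1 PFOS array. The median Cy5 brightness was 154.5 to 160 units in slide row 1 (control 1, control 2, PFOS 1 and PFOS 2) and 116 to 138 in slide row 2, over a background of 71 to 75. The liver label was checked on its markers. All 6 hepatocyte markers (Alb, Apoa1, Tf, Serpina1, Cps1 and Ttr) were tested, and their summed Cy5 brightness was 1097450 to 1211199 in control and 1029748 to 1099200 in PFOS livers. None of 26 tested markers of hepatocytes and 6 other cell types was called in the ratio, and Apoa1 was called lower in Cy5 alone (-1.79, limma adjusted p = 0.000168). Apoa1 also differed in the Cy3 reference (-1.38), and its ratio was at -0.38 (limma adjusted p = 0.116). Arrays carry no counts, so their number limits the precision. A limma p-value sets the difference between groups against the spread within groups, moderated over all features. With 1 array per rat, spread between rats and spread between arrays cannot be told apart. Of all features tested, 3.97% were called in the ratio and 4.81% in Cy5 alone, at a limma adjusted p under 0.05.

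Of the 27 cholesterol genes tested, 1 rose with PFOS, none fell and 26 did not pass, in the ratio and in Cy5 alone alike. That gene was Hmgcs1, and 1 of 27 is a share close to the 3.97% and 4.81% called among all features. These counts take the brightest probe of each gene, and a dimmer probe of Npc1, described with that gene, was called lower. By direction, 1.83% of all features were called higher and 2.14% lower in the ratio, and 2.39% higher and 2.42% lower in Cy5 alone. Values of the members lay on both sides of zero, with 13 above and 14 below in the ratio. Their median log2 change was -0.08, beside -0.01 for all features tested, and single members ranged from -0.52 to 0.81. Before adjustment, 2 members were higher and 4 lower at a limma p under 0.05, which is 6 of 27 beside 19.9% of all features. The same count in Cy5 alone was 10 of 27 (4 higher and 6 lower) beside 20.6%, or 9 of 27 without 2 odd spots of Hsd17b7 and Npc2 that are described with those genes. In whole liver, fewer cells of a type and less RNA per cell cannot be told apart, so each change is one of the tissue's RNA.

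**Figure D1:**
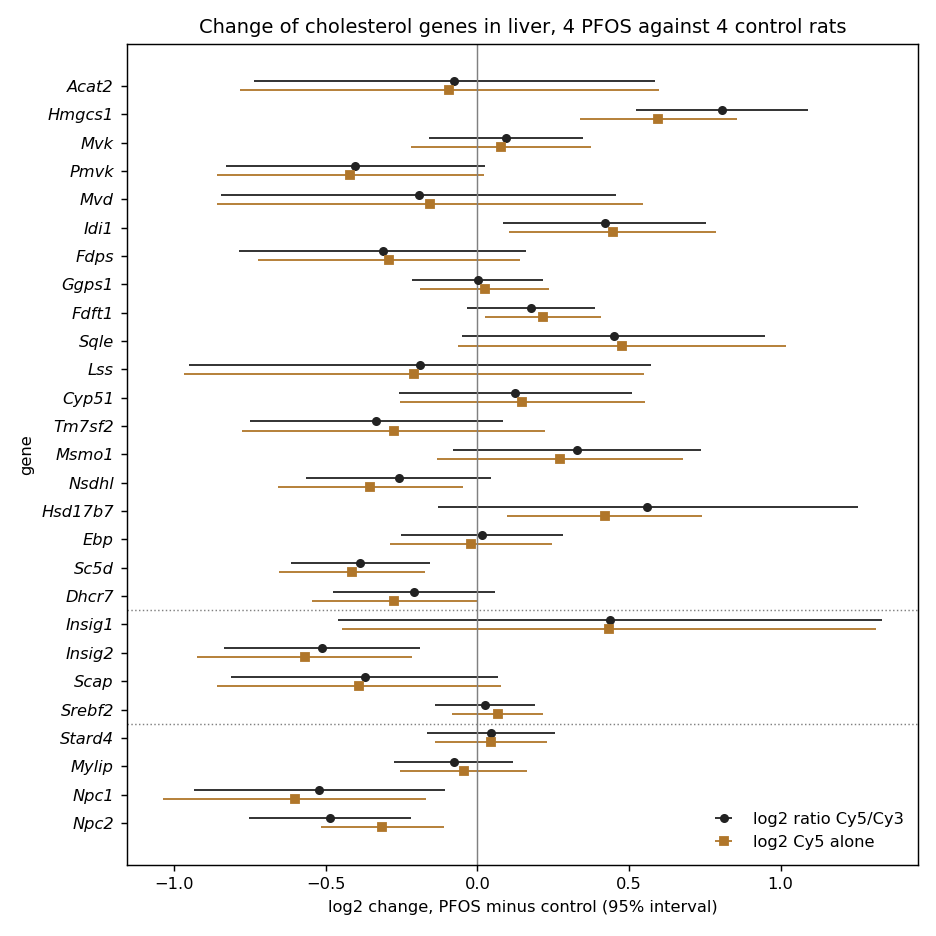
Log2 change (PFOS minus control, x axis) of each of the 27 tested genes (y axis), with 95% intervals from limma, for the log2 ratio (circles) and Cy5 alone (squares); dotted lines part synthesis enzymes, SREBP2 control and sterol handling. Hmgcs1 stands highest at 0.81 in the ratio, the intervals of Sc5d, Insig2, Npc1 and Npc2 lie below 0 in both quantities, and Insig1 has the widest interval.

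Hmgcs1 encodes the cytosolic HMG-CoA synthase, which joins acetoacetyl-CoA and acetyl-CoA ahead of mevalonate. Its log2 ratio was 1.47, 1.02, 1.43 and 1.12 in control 1 to 4 and 1.85, 2.22, 2.08 and 2.13 in PFOS 1 to 4. All PFOS values lay above all control values, and the nearest pair, control 1 and PFOS 1, was 1.47 against 1.85. The rise was 1.75-fold, with a log2 change of 0.81 (95% interval 0.52 to 1.09, SE 0.13, limma adjusted p = 0.00884). In Cy5 alone the change was 0.60 (SE 0.12, limma adjusted p = 0.0203), again with groups that did not overlap, from 14.73 to 15.17 in control and 15.35 to 15.68 in PFOS. The Cy3 reference at this probe differed by -0.13 between the groups, which widens the ratio. Within slide row 1 the change in the ratio was 0.79 and within slide row 2 it was 0.83, each from 2 rats a group. With slide column as a block the limma adjusted p was 0.0621 in the ratio and 0.0661 in Cy5 alone. The call in Cy5 alone was also lost without control 4 (0.57, limma adjusted p = 0.0582), PFOS 2 (0.56, 0.0533) or PFOS 3 (0.58, 0.0545).

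The other enzymes up to isopentenyl diphosphate did not pass. Acat2, a cytosolic thiolase that makes acetoacetyl-CoA, had log2 ratios of -0.84, -1.08, -1.94 and -1.86 in control 1 to 4 and of -1.41, -1.90, -1.81 and -0.91 in PFOS 1 to 4. Its 2 highest controls were from slide row 1, its highest PFOS value from slide row 2, and the groups overlapped fully. The change was -0.08, with an interval of -0.74 to 0.59 that spans changes in either direction. Mvd, which decarboxylates mevalonate diphosphate, showed the same array order, at -0.99, -1.23, -2.12 and -1.70 against -1.63, -2.17, -1.96 and -1.05, and changed by -0.19 (interval -0.85 to 0.46). For the kinases of mevalonate the changes were 0.09 for Mvk (interval -0.16 to 0.35) and -0.40 for Pmvk (-0.83 to 0.02). Idi1, the isomerase of isopentenyl diphosphate, stood at -1.13, -1.16, -1.27 and -1.36 in controls and -0.64, -1.27, -0.78 and -0.56 in PFOS livers. PFOS 2 lay among the controls and the other PFOS livers above them. The change of 0.42 (SE 0.15) did not pass (limma adjusted p = 0.162), and without PFOS 2 it was 0.57 (limma adjusted p = 0.0227). PFOS 2 was its lowest PFOS value, so leaving it out raises the change. Idi1 was called in 1 of 24 settings in the ratio and 1 of 22 in Cy5 alone.

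At the branch point, Fdps makes farnesyl diphosphate and Ggps1 geranylgeranyl diphosphate. Fdps was read by 2 probes that went the same way, at -0.31 and -0.33, neither of them called. Ggps1 was flat, with a change of 0.001 and an interval of -0.21 to 0.22. On the path to squalene and lanosterol, Fdft1, squalene synthase, changed by 0.18 in the ratio and 0.22 in Cy5 alone, and its groups did not overlap in Cy5 alone (11.68 to 11.82 against 11.87 to 12.19, limma adjusted p = 0.194). Sqle, the squalene monooxygenase, was at -1.98, -2.06, -2.63 and -2.36 in control 1 to 4. In PFOS 1 to 4 it was at -1.63, -2.20, -2.14 and -1.28, so that 2 PFOS livers stood above every control and 2 among them. Its change was 0.45 (interval -0.05 to 0.95, limma adjusted p = 0.298). Lss, which closes squalene epoxide to lanosterol, had the widest spread of the enzymes, with PFOS livers from -0.58 in PFOS 1 to 1.16 in PFOS 4 and controls from -0.01 to 0.68.

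After lanosterol, 8 tested enzymes trim and reduce the ring system, and none was called. Cyp51, the lanosterol demethylase, was at 0.68, 0.49, 0.14 and 0.31 in controls and 0.57, 0.38, 0.21 and 0.96 in PFOS livers. The groups overlapped, with a change of 0.13 (interval -0.26 to 0.51). Msmo1, the sterol methyl oxidase, was at 0.33 (interval -0.08 to 0.74) and its partner Nsdhl at -0.26 (-0.57 to 0.05). The ratio of Nsdhl was highest of all livers in PFOS 4 (3.47), and without that rat it was called lower in the ratio (-0.40, limma adjusted p = 0.0398) and in Cy5 alone (-0.50, limma adjusted p = 0.0126). Leaving out its highest PFOS value lowers the change. Nsdhl was called in 1 of 24 settings in the ratio and 2 of 22 in Cy5 alone. Tm7sf2, a sterol reductase, changed by -0.33, Ebp, an isomerase, by 0.01 and Dhcr7, the last step to cholesterol, by -0.21, each with an interval that includes 0. Sc5d, a sterol desaturase, was at 3.25, 3.04, 3.02 and 3.02 in controls and at 2.85, 2.54, 2.58 and 2.83 in PFOS livers. Every PFOS value lay below every control value, with a change in the ratio of -0.39 (SE 0.10, adjusted p = 0.0744 by limma) and in Cy5 alone of -0.41 (adjusted p = 0.0616). Groups did not overlap for 4 members in the ratio, Hmgcs1 above and Sc5d, Insig2 and Npc2 below, beside 12.8% of all features (5.91% higher and 6.89% lower). In Cy5 alone they did not overlap for 6 members, with Fdft1 and Hsd17b7 added above, beside 13.2% (6.33% higher and 6.89% lower). Hsd17b7 was apart only through 1 odd spot on PFOS 2, and without it 5 members were apart. Both quantities were apart in the same direction for 9.68% of all features.

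Hsd17b7, a sterol ketoreductase, shows how a single spot can carry a value. Its log2 ratio was 0.76 to 1.06 in controls and 1.28, 2.55, 0.94 and 1.11 in PFOS 1 to 4, so PFOS 2 stood far above the rest. The probe has 2 spots per array. On PFOS 2 one of them read 1295 units in Cy5 and 132 in Cy3, while its twin spot read 395.5 and 750.5. On the other 7 arrays that same spot read 239 to 520 in Cy5 and 544 to 633 in Cy3, and the scanner software had not marked it. The change was 0.56 with both spots and 0.10 without that spot, in a comparison added after the values were seen, and in Cy5 alone it went from 0.42 to 0.20. Without the spot PFOS 2 was at 0.71 in the ratio and 8.38 in Cy5 alone, and the groups overlapped in both.

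**Figure D2:**
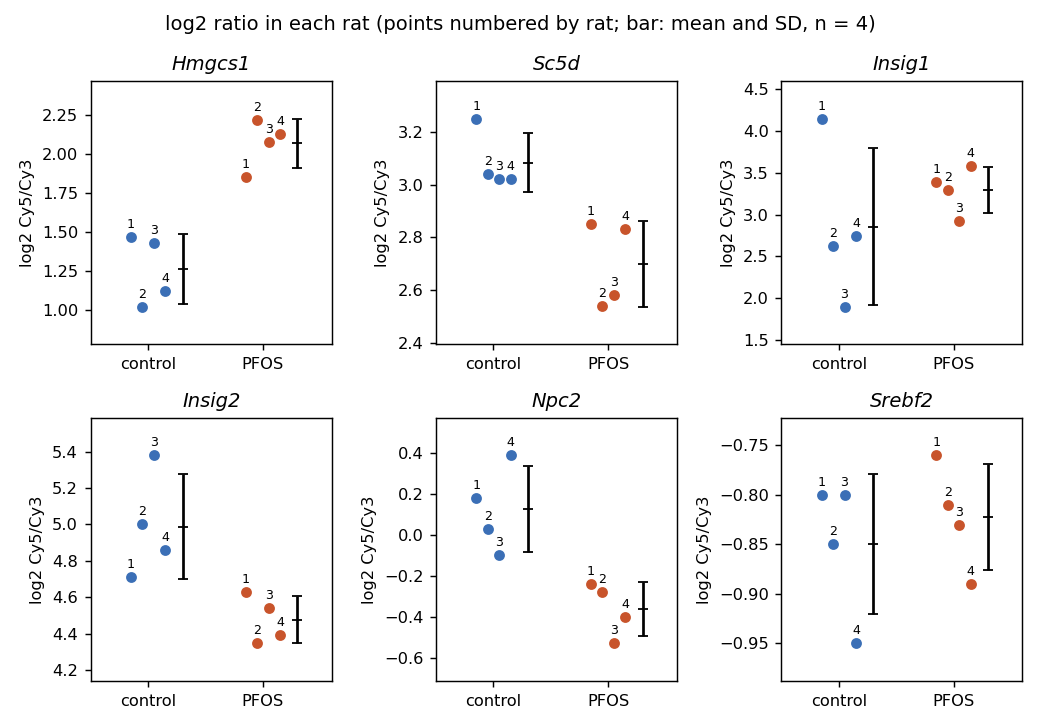
Log2 ratio of Cy5 over Cy3 (y axis, its own range in each panel) in each rat for Hmgcs1, Sc5d, Insig1, Insig2, Npc2 and Srebf2, with control and PFOS on the x axis, points numbered by rat, and bars for the mean and SD (n = 4). The groups are apart for Hmgcs1 (higher in PFOS) and for Sc5d, Insig2 and Npc2 (lower in PFOS), while Insig1 spreads from 1.90 to 4.15 among controls and Srebf2 stays within -0.95 to -0.76.

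Among the genes that control SREBP2, none was called. Srebf2 itself, which encodes SREBP2, was nearly level across all livers, at -0.80, -0.85, -0.80 and -0.95 in controls and -0.76, -0.81, -0.83 and -0.89 in PFOS livers. Its change was 0.02, and the interval of -0.14 to 0.19 makes it one of the most tightly bounded members. Scap, the escort of SREBP2, changed by -0.37 (interval -0.81 to 0.07), with control 1 high at 1.43 and all other livers between 0.34 and 0.85. Insig1, a sterol sensor partner that SREBP2 itself induces, was at 4.15, 2.63, 1.90 and 2.74 in control 1 to 4 and 3.39, 3.29, 2.92 and 3.58 in PFOS 1 to 4. Controls alone spanned more than the whole PFOS group, from 1.90 in control 3 to 4.15 in control 1, and the change of 0.44 has an interval of -0.46 to 1.34. Insig2, the isoform that SREBP2 does not induce, was at 4.71, 5.00, 5.38 and 4.86 in controls and 4.63, 4.35, 4.54 and 4.39 in PFOS livers. All PFOS values lay below all controls, by a narrow margin between control 1 and PFOS 1, and the change of -0.51 (SE 0.14) did not pass (limma adjusted p = 0.09). Cy5 alone gave -0.57 (limma adjusted p = 0.0756). Insig1 thus stood at 0.44 and Insig2 at -0.51, and the difference between these paralogs was not tested.

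In sterol handling, the lysosomal cholesterol carriers Npc1 and Npc2 had the lowest log2 changes. Npc2, the soluble carrier of the lysosome, was at 0.18, 0.03, -0.10 and 0.39 in controls and -0.24, -0.28, -0.53 and -0.40 in PFOS livers, with no overlap. Its change was -0.49 (SE 0.12) and narrowly missed the threshold (limma adjusted p = 0.0559), with -0.31 in Cy5 alone (limma adjusted p = 0.0867). One of its 2 spots read 4392 units in Cy3 on control 4 and 8436.5 to 9158.5 on the other arrays. Without that spot control 4 was at -0.05, the groups still did not overlap and the change was -0.38 (limma adjusted p = 0.0684).

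Npc1, the membrane protein that receives cholesterol from Npc2, was read by 2 probes. The brighter probe has 1 spot per array and the dimmer probe 2. The brighter, which stands for the gene, was at 1.05, 1.83, 1.76 and 1.84 in controls and 0.89, 1.27, 0.99 and 1.24 in PFOS livers, so control 1 lay within the PFOS range and the change of -0.52 did not pass (limma adjusted p = 0.161). The dimmer probe was at 1.34, 1.41, 1.44 and 1.47 in controls and 0.61, 0.84, 0.89 and 1.01 in PFOS livers, with no overlap. In a fit of all 16952 tested probes, of which 3.74% were called, that probe fell by 0.58 on the log2 scale (SE 0.10, limma adjusted p = 0.0119). The same fit in Cy5 alone gave -0.63 for that probe (limma adjusted p = 0.00787). Without control 1 the brighter probe was also called, at -0.71 (limma adjusted p = 0.0206). Control 1 was its lowest control, so leaving it out widens the change. Npc1 was called in 3 of 24 settings in the ratio. Markers of Kupffer cells, the liver's macrophages, which hold many lysosomes, were below 0 in the ratio for 5 of 5 tested genes (-0.64 to -0.01), with none called. Their summed Cy5 brightness was 18917 to 30487 in control and 16547 to 27377 in PFOS livers. For sinusoidal endothelium 3 of 3 were below 0 (-0.69 to -0.06), with sums of 6574 to 12113 and 4931 to 7135. Hepatocyte markers were below 0 in the ratio too, for 6 of 6 (-0.45 to -0.08). Other markers were above 0 in the ratio for 3 of 3 cholangiocyte, 2 of 5 stellate cell, 1 of 3 lymphocyte and 1 of 1 adipocyte genes. In Cy5 alone 4 of 5 Kupffer cell, 3 of 3 endothelial and 3 of 6 hepatocyte markers were below 0. The part of these cell types in the Npc1 and Npc2 values was not tested.

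Stard4, which carries cholesterol between membranes, changed by 0.05 (interval -0.17 to 0.26), and its second, dimmer probe by 0.27, not called. Mylip, a ubiquitin ligase for lipoprotein receptors, had 1 probe below the brightness limit and 1 tested, which was well above background on 4 control and 3 PFOS arrays and changed by -0.08.

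Many enzymes of the path shared an order of arrays within each group. Control 1 was the highest control for 15 of the 19 tested enzymes, and PFOS 4 was the highest PFOS liver for 12, while PFOS 3 was the highest for none. The median deviation of the enzymes from their group mean was 0.21 in control 1 and 0.06 in control 2, against -0.10 in control 3 and -0.11 in control 4. In PFOS livers it was 0.10, -0.17, -0.18 and 0.31 in order. The same median over all features lay between -0.02 and 0.01 on every array. Control 1 and PFOS 4 were both the highest of their groups for 9 enzymes in the ratio (Acat2, Pmvk, Mvd, Idi1, Fdps, Sqle, Cyp51, Msmo1 and Ebp), beside 6.22% of all features. In Cy5 alone they were so for 11 enzymes, with Nsdhl and Sc5d added, beside 8.61%. These 2 arrays were singled out after the values were seen, so the counts describe the arrays and test nothing.

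**Figure D3:**
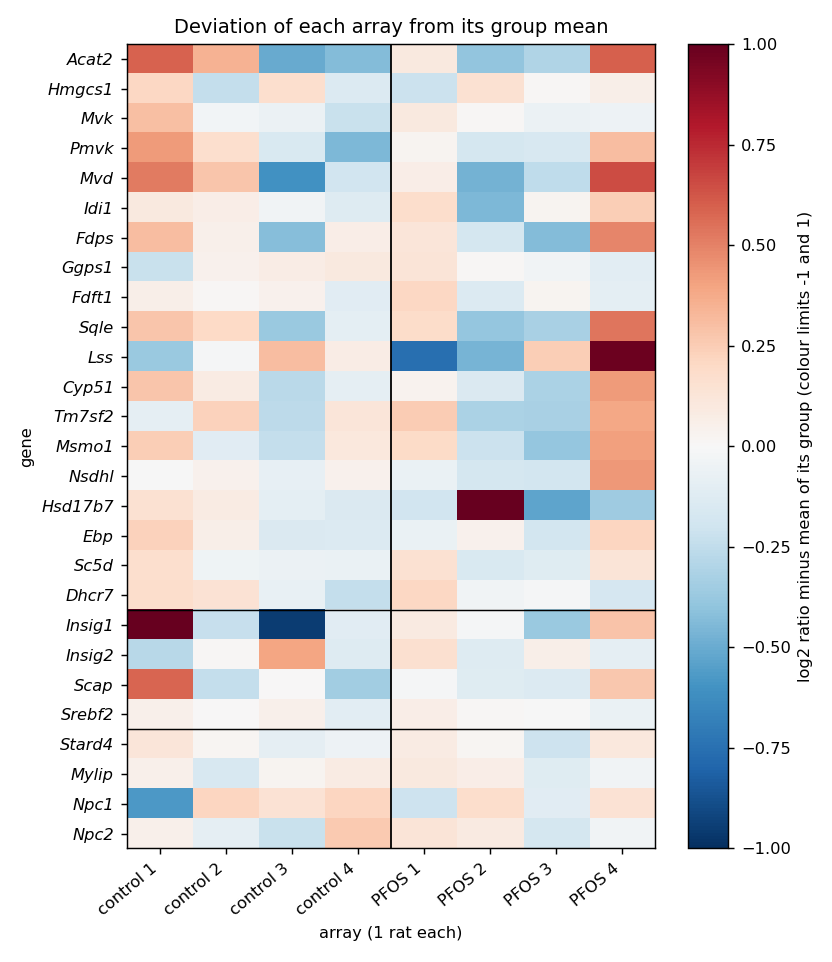
Log2 ratio of each gene (y axis) on each array (x axis) minus the mean of its own group, in colour from blue (-1 and below) over white (0) to red (1 and above); lines part control from PFOS and the 3 gene groups. Control 1 and PFOS 4 are red for most synthesis enzymes, with medians of 0.21 and 0.31, while Srebf2 and Fdft1 stay pale and Lss and Hsd17b7 follow other patterns.

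The gene that rose shared only part of this order. Hmgcs1 was 1.47 in control 1 and 1.43 in control 3, and PFOS 2 rather than PFOS 4 was the highest PFOS liver. Mvk, Ggps1, Fdft1, Lss, Tm7sf2, Nsdhl, Hsd17b7, Sc5d and Dhcr7 also had another liver on top in at least one group of the ratio. The pattern lay in the Cy5 channel: the median deviation of all members in the Cy3 reference was between -0.01 and 0.02 on every array. Control 1 was in slide row 1 and PFOS 4 in slide row 2, while 20 of 27 members stood higher in slide row 1 than in slide row 2 once group means were taken off (median 0.09, all features 0.02). The part of the rows in the pattern was not tested. Hepatocyte markers had median deviations of 0.05 in control 1 and 0.03 in PFOS 4, stellate cell markers 0.26 and 0.05 and Kupffer cell markers 0.25 and -0.57. Sinusoidal endothelium stood at 0.15 and -0.39, cholangiocytes at -0.17 and 0.26, lymphocytes at -0.33 and -0.13 and the 1 adipocyte marker at 0.04 and 0.18. What set these 2 arrays, or their rats, apart was not tested.

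The enzymes also spread more widely between the arrays of a group than most features. The median SD within groups was 0.28 for the 19 enzymes and 0.16 for all features. Fdft1 (0.12) and Ggps1 (0.13) were the steadiest enzymes and Lss (0.58), Acat2 (0.51) and Mvd (0.49) the most variable once the odd spot of Hsd17b7 was left out (0.53 with it, 0.20 without), while Insig1 (0.69) varied most of all members and Srebf2 (0.07) least. With control 1 and PFOS 4 both left out, a comparison added after the values were seen, 2 members were called in the ratio, Hmgcs1 (0.86) and Npc1 (-0.76). In Cy5 alone the 2 called were then Nsdhl (-0.47) and Npc1 (-0.90), and Hmgcs1 had a limma adjusted p of 0.0502.

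The slide rows gave unlike changes for several enzymes. In slide row 1, where control 1 lies, 11 of 27 members were above 0 and the median change was -0.14. In slide row 2, where PFOS 4 lies, 15 were above 0 and the median was 0.06, and 19 members had the same sign in both rows. Acat2 was at -0.69 in slide row 1 and 0.54 in slide row 2, Mvd at -0.79 and 0.40, and Insig1 at -0.05 and 0.93. Sc5d (-0.45 and -0.32), Insig2 (-0.36 and -0.66), Npc1 (-0.36 and -0.68) and Npc2 (-0.36 and -0.61) were lower in both. No member was called within a single row by limma, where 93 and 32 of all features were. At an unadjusted p under 0.05 there were 9 members in slide row 1, beside 12.6% of all features, and 6 in slide row 2, beside 11.6%.

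**Figure D4:**
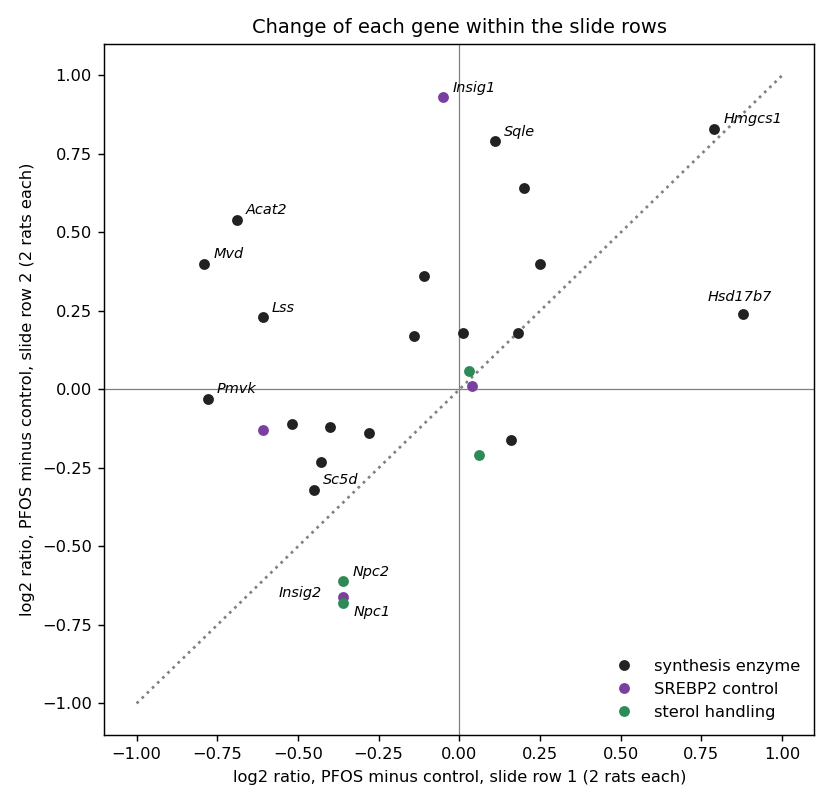
Log2 change in the ratio (PFOS minus control) within slide row 1 (x axis) and slide row 2 (y axis), each from 2 control and 2 PFOS rats, for the 27 tested genes coloured by role; the dotted line marks equal changes. Hmgcs1 lies at 0.79 and 0.83, the group of Npc1, Npc2, Insig2 and Sc5d is below 0 in both rows, and Acat2, Mvd and Lss are below 0 in slide row 1 and above 0 in slide row 2.

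Beyond the 28 members, 38 other genes of sterol metabolism were listed, from acetyl-CoA supply to export, and 32 were tested. Of these, 3 rose, none fell and 29 did not pass, in the ratio and in Cy5 alone, with a median of 0.02 in the ratio. The called share was 9.38%, beside 3.97% of all features in the ratio and 4.81% in Cy5 alone. Of all features, 1.83% were called higher in the ratio and 2.39% in Cy5 alone. Nceh1, a hydrolase that frees cholesterol from its esters, was at -0.71, -0.39, 0.18 and -0.37 in controls and 1.34, 0.99, 1.22 and 1.05 in PFOS livers. The groups were well apart, with a 2.77-fold rise (1.47 on the log2 scale, SE 0.17, adjusted p = 0.00314 by limma). Another, dimmer Nceh1 probe, well above background on 2 control arrays, changed by 0.89 and was not called, with PFOS 3 at 2.37 and the other PFOS livers at 0.76 to 0.93. Both Nceh1 probes have only 1 spot per array. Tmem97, a sterol-binding membrane protein that partners Npc1, was at 0.60 to 0.95 in controls and 1.26 to 1.35 in PFOS livers, a rise of 0.49 (SE 0.09, limma adjusted p = 0.0218). Dhdds, which builds dolichol from farnesyl diphosphate, rose by 0.55 (SE 0.11, limma adjusted p = 0.0314), from 1.08 to 1.45 in controls to 1.69 to 2.04 in PFOS livers. These 2 calls in the ratio, from probes with 2 spots per array, were lost in more of the alternative settings described below than that of Nceh1. The ratio call of Tmem97 needed control 2, PFOS 1 and PFOS 3, and that of Dhdds needed every array but control 2 and PFOS 4. Both also lost the ratio call with median centring in place of loess or with slide column as a block. In Cy5 alone Tmem97 kept its call in 19 of 22 settings and Dhdds in 20 of 22, beside 21 of 22 for Nceh1. Acss2, which makes acetyl-CoA from acetate, was not called at -0.58 (SE 0.21, limma adjusted p = 0.173). Srebf1, the gene of the sister factor of fatty acid synthesis, is not analysed here.

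**Figure D5:**
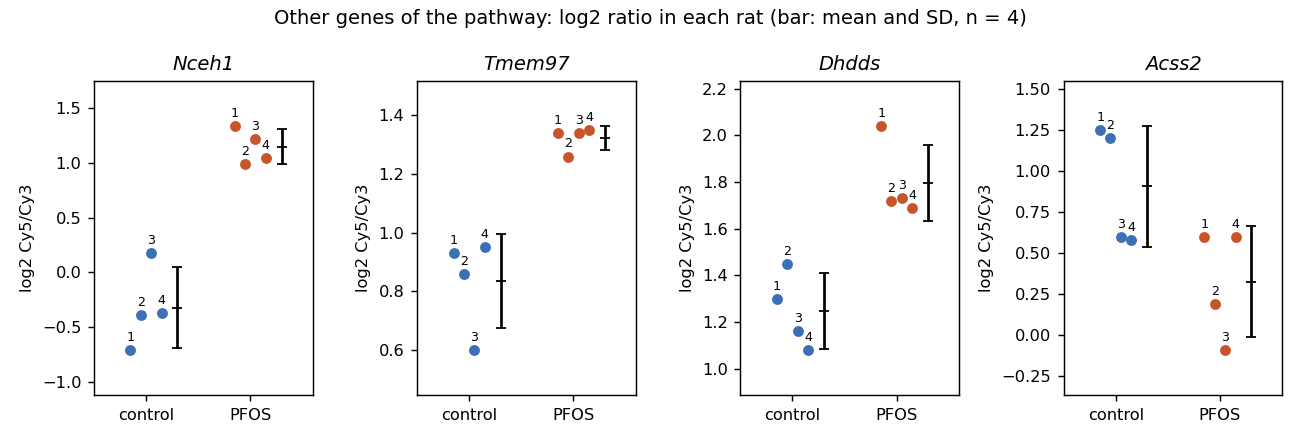
Log2 ratio of Cy5 over Cy3 (y axis, its own range in each panel) in each rat for Nceh1, Tmem97, Dhdds and Acss2, with control and PFOS on the x axis, points numbered by rat, and bars for the mean and SD (n = 4). The first 3 have every PFOS liver above every control, and Acss2 overlaps, with PFOS livers from -0.09 to 0.60 and controls from 0.58 to 1.25.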

How the data were processed

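Liver RNA of 8 rats was measured on 8 2-colour arrays of 62976 spots. Per the file headers, the authors' files hold median spot and background intensity per channel from Agilent Feature Extraction 10.7.3.1, a version also in the submitters' processing notes. A table of log2 values deposited beside them was used as an alternative; its scale and direction follow the scanner values (r 0.995 to 0.997), and its centring is unknown. In R 4.3.3 with limma 3.58.1, intensities were corrected by normexp (offset 50), normalised by loess within arrays (Cy5 alone by quantiles between arrays), and spots of a probe averaged. Control spots and outlier-marked spots (733 to 991 an array) were left out, and no spot was saturated. Probes well above background on at least 4 arrays were tested, 16952 of 30367, and the brightest probe stood for a gene. Accessions matched a RefSeq symbol for 18004 probes. The fit had 4 rats a group, no covariate and Benjamini-Hochberg adjustment over all 15204 features, with calls at 0.05. Values on every array are given for members that were called or apart in both quantities, for Hmgcs1, Idi1, Sqle, Cyp51, Insig1 and Srebf2, and for others picked after their values were seen. Among other sterol genes those called, and the 4 with the smallest p, are named. On simulated data of 16947 probes for the ratio comparison, 34% of log2 changes of 0.5 were called. Of log2 changes of 1, 80% of rises and 88% of falls were called. The changed probes were drawn from all tested probes, and the synthesis enzymes spread more (median SD 0.28 against 0.16 for all features). These rates need not hold for the cholesterol genes. Members, lists and rules were chosen with earlier results of these data known.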

Additional observations from a re-analysis of the deposited data

Results flagged for a closer look

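In 4 of 108 groups of 4 values, the value of 1 rat stood apart from the other 3 by Dixon's criterion, and chance alone marks about 1 in 20 groups. All 4 were control 1, for Sc5d and Npc1, each flagged in the ratio and in Cy5 alone. Both quantities use the same Cy5 spots, so the groups are not independent of each other. Its Sc5d value was 3.25 in the log2 ratio, where the other controls were at 3.02 to 3.04, and 11.92 in Cy5 alone, where they were at 11.60 to 11.63. Its Npc1 value, on the brighter probe, was 1.05 in the log2 ratio, where the other controls were at 1.76 to 1.84, and 11.81 in Cy5 alone, where they were at 12.61 to 12.68. That brighter probe has 1 spot per array. On the dimmer Npc1 probe, with 2 spots per array, control 1 was at 1.34 and the other controls at 1.41 to 1.47.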

How the results depend on the processing

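Over the alternatives, no member's called change turned direction. In the ratio 1 member was called, and 2 were with a filter of all 8 arrays or with trend and robust moderation (Hmgcs1 and Npc2), with the mean of a gene's probes, or with control 1 and PFOS 4 both left out (Hmgcs1 and Npc1), the last chosen after seeing the data. By limma, 0 were called with slide column as a block (7 before adjustment), where calls among all features went from 604 to 268, and 0 in slide row 1 alone (9 before adjustment, 93 calls among all features) or slide row 2 alone (6 and 32). In Cy5 alone 1 was called, and 2 were with the mean of probes (Hmgcs1 and Npc1), with slide row as a block (Hmgcs1 and Npc2), or with both arrays left out (Nsdhl and Npc1). By limma, 0 were called with slide column as a block (10 before adjustment), where calls among all features went from 731 to 446, and 0 in slide row 1 alone (10 and 108) or slide row 2 alone (6 and 26). Leaving out 1 rat gave 1 to 2 calls in the ratio and 0 to 2 in Cy5 alone, where 10 members passed before adjustment without control 4 and 9 without PFOS 3. Hmgcs1 was called in 21 of 24 settings in the ratio (0.73 to 0.88) and in 15 of 22 in Cy5 alone (0.51 to 0.71). Nceh1 kept its call in 23 of 24 settings in the ratio, all but slide row 2 alone. Rats could not be paired by label, because the labels give the groups no shared replicate numbers. The fit with slide column as a block pairs arrays by position, 1 control and 1 PFOS array in each column. Single slide rows hold 2 rats a group. The brightness filter left Mylip with a probe near background in 1 PFOS liver.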
